A study of Rattus norvegicus with 17 samples.

Results

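RNA polymerase II (RNAPII) was mapped by chromatin immunoprecipitation with sequencing (ChIP-seq) in oligodendrocyte precursor cells (OPC) and in immature oligodendrocytes (iOL), the cells of the lineage that begin to differentiate towards myelin formation. The members described here are all peaks of these 2 libraries, 332 in OPC and 1425 in iOL, together 1757 of the 189320 peaks in the 17 lists of the study. Both libraries came from wild-type Sprague-Dawley rats, from cells of the cortex of pups taken at postnatal day 2. OPC were labelled as mitogen-treated, and the growth medium held PDGF-AA at 10 ng/ml and bFGF at 20 ng/ml. iOL were labelled as treated with T3, the active thyroid hormone, and the differentiation medium held it at 15 nM with ciliary neurotrophic factor at 10 ng/ml. The labels' growth text names the isolated cells iOL for every library, so the stage was taken from the cell type label of each sample. The number of pups or cultures in a library and the time in differentiation medium are not given in the labels. Peak positions alone gave no marker genes by which to check the cell labels. There was 1 library per stage, so no difference between stages has a replicate check and no test between stages was made. The study has no RNAPII library of mature oligodendrocytes (mOL), and histone marks of mOL are used only to describe the same places at that stage. The mOL libraries are listed with the same pup age and the same T3 and ciliary neurotrophic factor concentrations as iOL.

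RNAPII transcribes the protein-coding genes. It is loaded at promoters, whose nucleosomes carry trimethylation of histone H3 at lysine 4 (H3K4me3), and it often pauses shortly after the start before it moves into the gene. Acetylation of H3 at lysine 27 (H3K27Ac) marks active promoters and active enhancers, and polymerase is also found at enhancers, where short transcripts are made. Over the body and the end of strongly transcribed genes polymerase can be dense enough to be called as a peak without either mark. In a peak list these situations can be separated by the marks that the peak meets, which is the basis of the classes below.

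Each peak was called kept if it shared at least 1 bp with an RNAPII peak of the other stage, and otherwise lost (OPC) or gained (iOL). These names describe calls in 2 lists of unequal length and unknown depth, and polymerase that was present but not called in OPC cannot be told apart from polymerase that came with differentiation. Of the OPC peaks 216 were kept and 116 were lost, which is 34.9% (exact Clopper-Pearson 95% interval 29.8 to 40.3; such intervals on shares, and the exact binomial ones on medians, follow in parentheses and cover counting error over peaks only). The kept share, 65.1%, depended on the peaks compared: it was 37.3% in the wider 50% of each list, 42.2% for the central 200 bp of the peaks and 20.8% with the iOL list cut to its 332 widest peaks, so that most OPC peaks were then lost. Of the iOL peaks 214 were kept and 1211 were gained, or 85.0% (83.0 to 86.8). Kept peaks matched almost entirely 1 to 1. Of the 216 kept OPC peaks 215 met a single iOL peak, and of the 214 kept iOL peaks 211 met a single OPC peak, giving 217 pairs. All 21 chromosomes with a peak, 1 to 20 and X, had RNAPII at both stages, with no peak on unplaced sequence. On chromosome 10 only 4 of 37 OPC peaks were lost, on chromosome 8 it was 10 of 16. Chromosome X had the lowest ratio of iOL to OPC peaks, 33 to 16, and chromosome 18 the highest, 40 to 4.

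The lists differed little in the typical size of a peak. The median width was 1039 bp in OPC (quartiles 859 and 1293) and 1047 bp in iOL (897 and 1272), so the iOL list was longer by number and not by wider peaks. Within the OPC list, lost peaks were wider than kept ones. Their median was 1197 bp (exact binomial 95% interval of the median 1113 to 1240) against 974 bp (935 to 1003) for kept peaks. Within the iOL list, kept peaks had a median of 1089 bp (1007 to 1162) and gained peaks one of 1043 bp (1026 to 1063), and the intervals overlapped. The widest peaks were kept ones: the top 4 of iOL, all of them 3138 bp or more, are described below, whereas the widest gained peak had 3085 bp. The OPC order turned round when the iOL list was cut to its 332 widest peaks, where kept OPC peaks had a median of 1172 bp and lost ones of 1013 bp.

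Every RNAPII peak was then placed in 1 class by the marks of its own stage: H3K4me3, H3K27Ac without H3K4me3 (H3K27Ac only), or none of these. Most peaks of every group carried H3K4me3, the promoter mark. In OPC it was met by 162 of 216 kept peaks (75%, 68.7 to 80.6) and 73 of 116 lost peaks (62.9%, 53.5 to 71.7). In iOL it was met by 170 of 214 kept peaks (79.4%, 73.4 to 84.6) and 874 of 1211 gained peaks (72.2%, 69.6 to 74.7). The share was thus higher in kept peaks in both lists, with intervals that overlapped in both. H3K27Ac only, a pattern known from enhancers, was found at 22 kept (10.2%, 6.49 to 15.0) and 18 lost peaks (15.5%, 9.46 to 23.4) of OPC. In iOL it was found at 17 kept (7.94%, 4.70 to 12.4) and 213 gained peaks (17.6%, 15.5 to 19.9), the only class in which kept and gained intervals did not overlap. Neither mark was found at 32 kept (14.8%, 10.4 to 20.3) and 25 lost peaks (21.6%, 14.5 to 30.1) of OPC, and at 27 kept (12.6%, 8.48 to 17.8) and 124 gained peaks (10.2%, 8.59 to 12.1) of iOL. The unmarked shares moved by more than 1.5 times in some settings. In the wider 50% of each list they were 13.5% of lost OPC and 6.67% of kept iOL peaks. With the 332 widest iOL peaks they were 7.58% of kept and 6.02% of gained iOL peaks, and with marks of all 3 stages pooled 6.36% of gained peaks. With peaks reduced to their middle 200 bp the unmarked share of kept OPC peaks was 22.9%. The order of kept above lost in H3K4me3 was the opposite in 2 other settings: 67.7% against 71.2% in the wider 50% of each RNAPII list, and 63.8% against 72.6% with the iOL list cut to its 332 widest peaks.

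**Figure D1:**
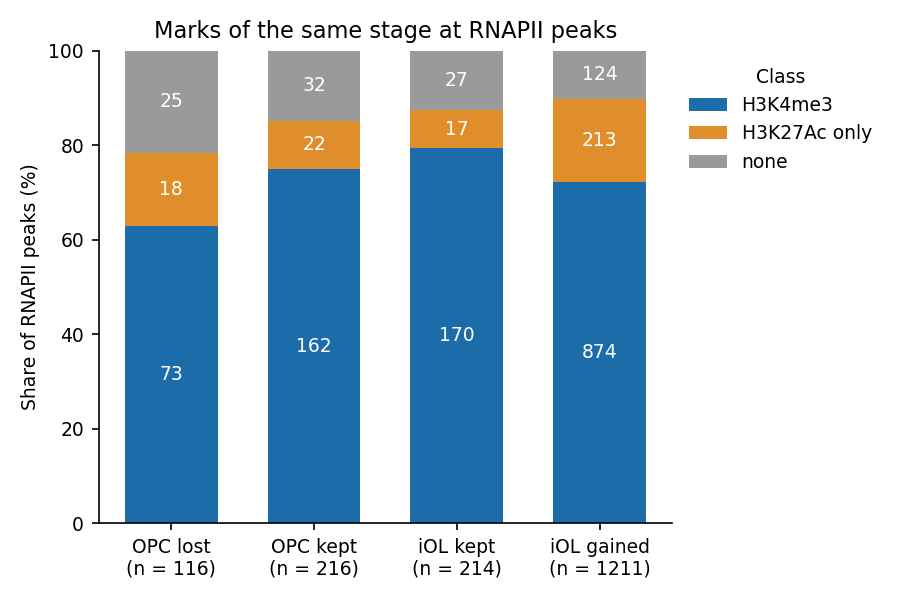
Share of RNAPII peaks in each class of marks of the same stage (bars sum to 100%, peak numbers inside the bars), for lost and kept OPC peaks and kept and gained iOL peaks, 1 library per stage. H3K4me3 makes up 62.9% to 79.4% of each bar, and the H3K27Ac-only part is largest in gained iOL peaks (213 of 1211).

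Width differed by class, and most among the kept peaks. Kept peaks with H3K27Ac only were wide, with a median of 1338 bp (868 to 1732, n = 22) in OPC and 1509 bp (995 to 2236, n = 17) in iOL. Kept unmarked peaks were narrow, with medians of 741 bp (509 to 911, n = 32) and 695 bp (463 to 1078, n = 27). Kept H3K4me3 peaks lay between, at 984 bp (943 to 1011) in OPC and 1115 bp (1026 to 1172) in iOL. The low medians of unmarked kept peaks included 8 pairs with equal borders, 411 to 808 bp wide in OPC, which are described below. The other 24 pairs whose OPC peak was unmarked had medians of 830 bp in OPC and 1226 bp in iOL. Among gained peaks the classes were closer together: 1037 bp (1015 to 1059) with H3K4me3, 1113 bp (1047 to 1159) with H3K27Ac only and 1016 bp (972 to 1061) without a mark.

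**Figure D2:**
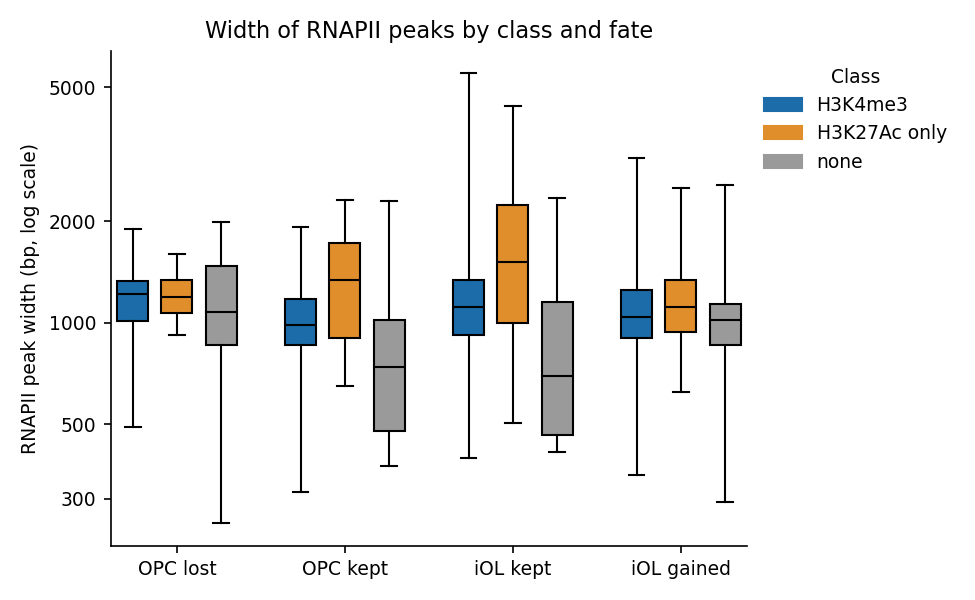
Width of RNAPII peaks in bp (log axis) for each fate and class; boxes give quartiles and median, whiskers the narrowest and widest peak. The unmarked kept peaks have the lowest medians (741 bp in OPC, 695 bp in iOL), and the H3K27Ac-only kept peaks the highest (1338 and 1509 bp).

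H3K4me3 at RNAPII peaks was nearly the same at both stages, whether or not RNAPII was called at both. Of the 235 OPC peaks with H3K4me3, 230 (97.9%, 95.1 to 99.3) met H3K4me3 in iOL as well. Among these were 69 of the 73 lost peaks with H3K4me3 (94.5%, 86.6 to 98.5). The other 4 had H3K27Ac only in iOL, so none of the 73 lost both marks, which allows a share of up to 4.11%. In the other direction, 881 of the 1211 gained peaks lay at H3K4me3 in OPC, and 841 of these kept it in iOL (95.5%, 93.9 to 96.7). H3K4me3 that was called in iOL and not in OPC was found at 33 gained peaks, 22 of them with H3K27Ac in OPC and 11 with neither mark there. Of the 145 gained peaks that were unmarked in OPC, 34 (23.4%, 16.8 to 31.2) had H3K27Ac only in iOL and 100 remained unmarked. Places with H3K27Ac only changed class more often than those with H3K4me3. Of the 40 OPC peaks with H3K27Ac only, 28 (70%, 53.5 to 83.4) kept this class in iOL and 11 met H3K4me3 there. Of the 185 gained peaks with H3K27Ac only in OPC, 147 (79.5%, 72.9 to 85.0) kept it. In all, the class was the same at both stages for 204 of 216 kept OPC peaks (94.4%), 105 of 116 lost peaks (90.5%) and 1088 of 1211 gained peaks (89.8%). Counted over all peaks of the marks as background, 82.8% of OPC H3K4me3 peaks met an iOL H3K4me3 peak and 91.7% of iOL ones met an OPC one. For H3K27Ac these values were 76.3% and 66%. In mOL, whose H3K4me3 list was longer (17530 peaks), H3K4me3 was met by 183 of 216 kept (84.7%, 79.2 to 89.2) and 80 of 116 lost OPC peaks (69.0%, 59.7 to 77.2), and by 1017 of 1211 gained peaks (84.0%, 81.8 to 86.0). The share of all OPC or iOL H3K4me3 peaks that meet H3K4me3 of mOL was not computed, so the mOL values have no background. Neither mark was met at any of the 3 stages by 24 kept and 21 lost OPC peaks and by 77 gained peaks. H3K9me3, a mark of silent chromatin, was met by 6 of 57 unmarked OPC peaks (10.5%, 3.96 to 21.5) and by 0 of the 235 with H3K4me3, which allows a share of up to 1.28%. In iOL, whose H3K9me3 list was shorter (827 peaks against 3149), it was met by 1 of 151 unmarked peaks (0.662%, 0.0168 to 3.63). For H3K9me3, too, no background share was computed.

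The same was seen from the side of the H3K4me3 peaks. Of the 11758 H3K4me3 peaks of OPC 2.6% met RNAPII of OPC, and of the 10467 of iOL 11.9% met RNAPII of iOL. Those with RNAPII were shared between stages more often: 295 of 306 OPC peaks with RNAPII (96.4%, 93.7 to 98.2) met H3K4me3 in iOL, against 82.4% (81.7 to 83.1) of those without. Wide H3K4me3 peaks were also shared more often, so the share was taken again within 4 equal classes by width. Within the narrowest class of OPC H3K4me3 peaks the values were 86.5% (74.2 to 94.4, n = 52) with RNAPII and 58.1% (56.3 to 59.9, n = 2888) without. In the next class they were 98.0% and 82.8%. The contrast was smaller in wide peaks, with intervals that overlapped. It was 95.3% (86.9 to 99.0) against 92.1% (91.1 to 93.1), and 100% (97.4 to 100) against 97.1% (96.5 to 97.7) in the widest class. In iOL, 95.3% (94.0 to 96.4) of H3K4me3 peaks with RNAPII and 91.2% (90.6 to 91.8) of those without met H3K4me3 in OPC. In the widest iOL class the 2 values were 98.8% and 98.9%.

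Promoters with RNAPII were also acetylated. H3K27Ac of the same stage was met by 156 of 162 kept and by all 73 lost OPC peaks with H3K4me3, and by all 170 kept and 840 of 874 gained iOL peaks with H3K4me3. As background, 74% of all OPC and 78.9% of all iOL H3K4me3 peaks met H3K27Ac. H3K4me3 peaks with H3K27Ac met RNAPII in 3.39% (3.02 to 3.79) of cases in OPC and 14.3% (13.6 to 15.1) in iOL. Those without H3K27Ac met it in 0.360% (0.180 to 0.643), which is 11 of 3055 peaks, and 2.90% (2.24 to 3.69). The difference was also present within a width class: in the narrowest class of iOL H3K4me3 peaks, H3K27Ac was met by 87.2% (81.8 to 91.5) of peaks with RNAPII and 61.2% (59.2 to 63.1) of those without.

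RNAPII was found at wide H3K4me3 peaks more often than at narrow ones. H3K4me3 peaks with RNAPII had a median width of 1065 bp (980 to 1182) in OPC and 1067 bp (1027 to 1102) in iOL, against 831 bp (823 to 840) and 842 bp (833 to 851) for those without. A wide peak can meet another peak more easily by its size alone, and what this adds was not tested. Over the 4 width classes the share with RNAPII in OPC was 1.77% (1.32 to 2.31) in the narrowest, 1.67% and 2.18% in the middle ones and 4.80% (4.05 to 5.63) in the widest, which began at 1153 bp. In iOL it was 7.76% (6.76 to 8.85), 8.37%, 11.7% and 19.8% (18.3 to 21.4). Among acetylated H3K4me3 peaks alone the contrast was smaller. From narrowest to widest their shares were 3.24% (2.41 to 4.25), 2.27%, 2.46% and 5.12% (4.32 to 6.01) in OPC, where the narrowest class lay above both middle ones, and 10.7% (9.25 to 12.3), 10.3%, 13.2% and 21.1% (19.4 to 22.7) in iOL. Of H3K4me3 peaks of 3 kb or wider, 15 of 93 (16.1%, 9.32 to 25.2) met RNAPII in OPC and 21 of 78 (26.9%, 17.5 to 38.2) in iOL.

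**Figure D3:**
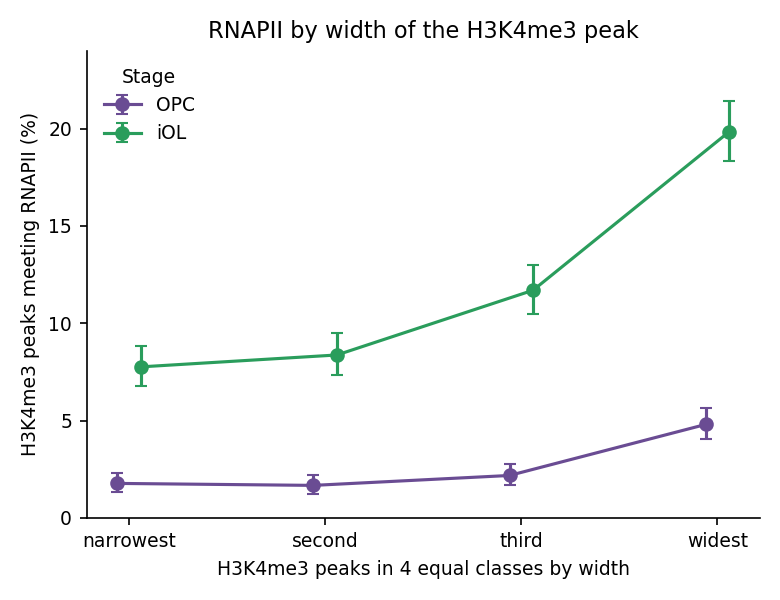
Share of H3K4me3 peaks that meet an RNAPII peak of the same stage (y axis, %), for 4 equal classes of all H3K4me3 peaks by width (x axis), in OPC and iOL; bars are exact 95% intervals over peaks. The widest class stands above the others at both stages, at 4.80% in OPC and 19.8% in iOL.

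The widest H3K4me3 peak that each RNAPII peak met was compared by fate. It had a median of 1340 bp (1231 to 1536, n = 162) at kept OPC peaks and 1182 bp (1053 to 1378, n = 73) at lost ones, intervals that overlap. In iOL it was 1314 bp (1205 to 1450, n = 170) at kept and 1155 bp (1118 to 1193, n = 874) at gained peaks, intervals that do not overlap. The medians over all H3K4me3 peaks were 835 bp in OPC and 864 bp in iOL. H3K4me3 of 3 kb or wider was met by 11 of 162 kept and 4 of 73 lost OPC peaks, and by 9 of 170 kept (5.29%, 2.45 to 9.81) and 15 of 874 gained iOL peaks (1.72%, 0.964 to 2.81). The medians for kept peaks were the higher ones in both lists.

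The middle of an RNAPII peak was usually inside H3K4me3 but away from the middle of the widest H3K4me3 peak met. Where several were met, the widest need not be the one that holds the middle. The middles of the RNAPII peak and of the widest H3K4me3 peak met were a median of 511 bp (382 to 572) apart at kept and 494 bp (304 to 569) at lost OPC peaks, and 405 bp (336 to 494) at kept and 325 bp (302 to 354) at gained iOL peaks. The middle of the RNAPII peak was inside an H3K4me3 peak in 121 of 162 kept and 62 of 73 lost OPC peaks, and in 137 of 170 kept and 704 of 874 gained iOL peaks. H3K4me3 covered a median of 77.9% to 87.7% of the RNAPII peak in the 4 groups. Some RNAPII peaks bridged separate H3K4me3 peaks: 2 or more were met by 48 of 162 kept (29.6%, 22.7 to 37.3) and 20 of 73 lost OPC peaks (27.4%, 17.6 to 39.1), and by 40 of 170 kept (23.5%, 17.4 to 30.6) and 167 of 874 gained iOL peaks (19.1%, 16.6 to 21.9). The direction of the genes was not used here, so upstream and downstream were not separated.

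Of the 5 widest H3K4me3 peaks with RNAPII at each stage, 3 in OPC and 3 in iOL had an RNAPII peak that crossed one of their ends. On chromosome 15, H3K4me3 covered chr15:66389690-66396194 (6505 bp) in OPC and chr15:66389602-66396076 (6475 bp) in iOL. RNAPII was kept at its left end, at chr15:66389002-66390173 in OPC and chr15:66388664-66390356 in iOL, and was not called over the rest. On chromosome 6, H3K4me3 covered chr6:39492623-39498283 (5661 bp) in OPC and chr6:39493634-39498312 (4679 bp) in iOL, and RNAPII was kept at the right end, at chr6:39497420-39498798 and chr6:39497870-39499028. The widest H3K4me3 peak with RNAPII in OPC, chr2:132886983-132893839 (6857 bp), held an RNAPII peak of 811 bp in its interior. Positions are in rat build rn4. An rn4 annotation was not used here, so genes are not named.

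Pairs of kept peaks were used to see whether polymerase covered the same bases at both stages. The middles of paired peaks were a median of 141 bp apart (116 to 167), and 140 of 217 pairs (64.5%) had middles within 200 bp. The shorter peak lay wholly inside the longer in 111 pairs, and only 6 pairs shared under 50% of the shorter peak. The iOL peak was the wider one in 132 pairs (60.8%, 54.0 to 67.4), with a median ratio of iOL to OPC width of 1.10 (1.03 to 1.16). In 47 pairs the iOL peak was at least 1.5 times as wide, and in 19 pairs the OPC peak was.

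**Figure D4:**
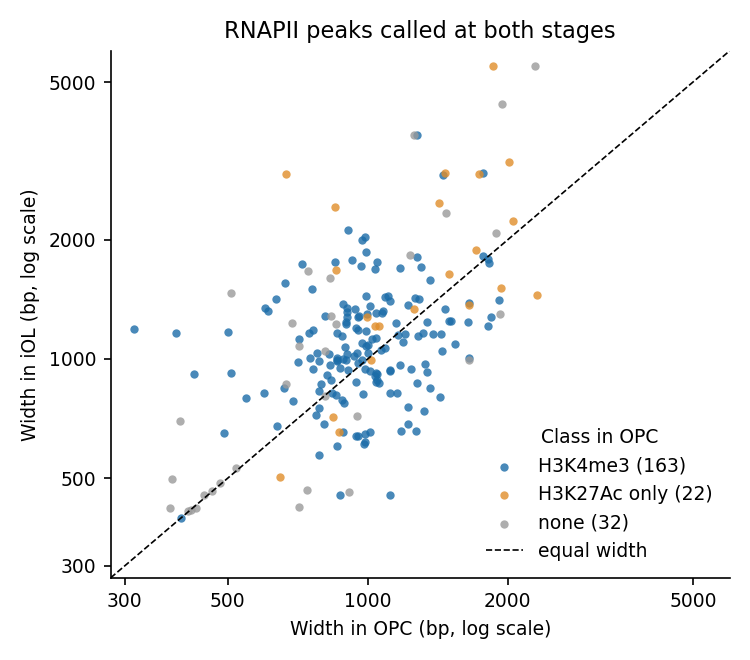
Width in OPC (x axis) and iOL (y axis) of the 217 pairs of RNAPII peaks called at both stages (bp, log axes), coloured by the class of the OPC peak; the dashed line marks equal width. The OPC widths end at 2308 bp and the iOL widths at 5498 bp, and a group of narrow unmarked pairs lies on the line.

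The widest kept peaks of iOL covered more bases than their OPC partners, in some cases as 1 call that met 2 OPC peaks. They were picked by width in iOL, and this choice by itself favours a wider call in iOL. Ranked by OPC width the direction was mixed. The widest kept OPC peak, 2308 bp, met an iOL peak of 1454 bp, and the next, 2290 bp, met one of 5498 bp. The widest RNAPII peak of iOL, chr8:69443579-69449076 (5498 bp), met 2 OPC peaks of 2290 and 1859 bp that were 1403 bp apart, sharing 2087 bp with the first and all of the second. It met H3K27Ac of 716 bp, and H3K4me3 at 0.109% of its bases only. The iOL peak chr9:71389541-71393220 (3680 bp) met OPC peaks of 1276 and 1258 bp with a gap of 75 bp, and chr12:42387067-42389988 (2922 bp, H3K27Ac only) met peaks of 1732 and 668 bp with a gap of 30 bp. The opposite, 1 OPC peak that met 2 iOL peaks, occurred once, at chr5:22498191-22499308. The iOL peak chr2:191304480-191308877 (4398 bp) extended an OPC peak of 1941 bp on both sides. It had no mark in OPC, H3K27Ac only in iOL and mOL, and H3K4me3 of iOL 2043 bp away. An OPC peak 1704 bp from it, chr2:191300785-191302776 (1992 bp), was the widest of the lost peaks. The H3K27Ac-only peak chr10:71355101-71358238 (3138 bp in iOL, 2009 bp in OPC) lay 17547 bp from H3K4me3 of iOL and met H3K4me3 in mOL.

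Among the unmarked kept pairs a small set had the same borders at both stages. In 8 of the 32 pairs whose OPC peak was unmarked (25%, 11.5 to 43.4), start and end both agreed within 10 bp. This was the case in 0 of 163 pairs with H3K4me3 in OPC, which allows a share of up to 1.84%, and in 0 of 22 with H3K27Ac only, which allows up to 13.6%. The limit of 10 bp matters here. A narrow H3K4me3 pair, chr5:44727823-44728219 in OPC with chr5:44727834-44728229 in iOL, lay just outside it. The 8 pairs were narrow, 411 to 808 bp in OPC, and 7 of them met neither mark at any of the 3 stages, and 1 met H3K9me3 of OPC. Repeat and mappability annotation of rn4 was not used here, so it was not tested whether reads at these places map uniquely. An example is chr7:67429557-67429972, 416 bp wide with identical borders in both lists. Others are chr3:63035273-63035717 in OPC with chr3:63035270-63035722 in iOL, and chrX:158367456-158368263 with chrX:158367458-158368262. The other 24 unmarked pairs had medians of 830 bp in OPC and 1226 bp in iOL.

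H3K4me3-free peaks were followed by their distance to the nearest H3K4me3 peak of the same stage, between edges. In OPC the median distance was 26406 bp (13635 to 53940, n = 54) for kept and 39023 bp (22741 to 190074, n = 43) for lost peaks. In iOL it was 26112 bp (16834 to 76880, n = 44) for kept and 32801 bp (23905 to 40180, n = 337) for gained peaks. All these intervals overlap. Within 10 kb of H3K4me3 were 18 of 54 kept (33.3%, 21.1 to 47.5) and 9 of 43 lost peaks (20.9%, 10.0 to 36.0), and 12 of 44 kept (27.3%, 15.0 to 42.8) and 117 of 337 gained peaks (34.7%, 29.6 to 40.1). These shares moved with the overlap rule, but that rule also decides which peaks count as H3K4me3-free. Asking for an overlap of at least 50% of the shorter peak adds peaks that touch H3K4me3 and so lie within 10 kb. Shares under it were 50% for kept (n = 72) and 33.3% for lost OPC peaks (n = 51). For iOL they were 44.8% of kept (n = 58) and 49.8% of gained peaks (n = 438). Counting peaks within 1000 bp as overlapping instead removes the nearest peaks. That left 20.8% of kept and 15.8% of lost OPC peaks, with 17.5% of kept and 21.2% of gained iOL peaks. Both directions were largely set by the rule, so these values do not test how stable the distances are. Within 1 kb were 11 of 97 OPC and 63 of 381 iOL peaks.

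In both lists, H3K27Ac-only peaks lay within 10 kb of H3K4me3 more often than unmarked ones. Of the H3K27Ac-only peaks 45.0% (29.3 to 61.5) in OPC and 43.0% (36.6 to 49.7) in iOL lay within 10 kb of H3K4me3, with medians of 17534 bp and 17684 bp. Of the unmarked peaks 15.8% (7.48 to 27.9) and 19.9% (13.8 to 27.1) did, with medians of 55765 bp and 45362 bp. The kept H3K27Ac-only peaks of OPC were nearest, with a median of 7198 bp (841 to 26353, n = 22), and all 22 were within 100 kb. The lost ones had a median of 31000 bp (2127 to 179971, n = 18), an interval that overlaps.

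RNAPII at acetylated regions without H3K4me3 was uncommon. RNAPII was met by 1.9% of all OPC and 7.35% of all iOL H3K27Ac peaks. Those with H3K4me3 met it in 3.32% (2.96 to 3.71) of cases in OPC and 14.4% (13.6 to 15.1) in iOL. Those without met it in 0.624% (0.480 to 0.797) and 2.73% (2.46 to 3.03). The transcription factor Olig2 and the chromatin remodeller Brg1 were unevenly spread over the classes of iOL RNAPII peaks, as they were over H3K27Ac peaks without RNAPII. Among gained peaks Olig2 was at 110 of 213 with H3K27Ac only (51.6%, 44.7 to 58.5), 77 of 874 with H3K4me3 (8.81%, 7.02 to 10.9) and 12 of 124 unmarked ones. Brg1 was at 46 of these 213 (21.6%, 16.3 to 27.7), 19 of 874 and 3 of 124. Kept H3K27Ac-only peaks met Olig2 in 3 of 17 cases (17.6%, 3.80 to 43.4), and Brg1 in 0 of 17, which allows a share of up to 17.6%. As background, of all iOL H3K27Ac peaks that met neither H3K4me3 nor RNAPII, 54.2% held Olig2 and 21.7% Brg1, against 38.5% (33.4 to 43.8) and 16.0% (12.4 to 20.2) of those that met RNAPII. Of iOL H3K27Ac peaks with H3K4me3 and without RNAPII, 8.21% held Olig2 and 2.89% Brg1, against 9.75% (8.15 to 11.5) and 2.44% (1.65 to 3.46) of those with both. In OPC, Olig2 was at 10 of 116 lost (8.62%, 4.21 to 15.3) and 3 of 216 kept peaks (1.39%, 0.287 to 4.01), and Brg1 at 0 of 332, which allows a share of up to 0.904%. As background in OPC, Olig2 was at 52.1% (51.1 to 53.1) of H3K27Ac peaks that met neither H3K4me3 nor RNAPII. Of H3K27Ac peaks that met RNAPII and no H3K4me3, it was at 6 of 63 (9.52%, 3.58 to 19.6). For H3K27Ac peaks with H3K4me3 these values were 5.92% (5.44 to 6.44) and 4% (2.08 to 6.88). All these background shares, in OPC and iOL, count H3K27Ac peaks and not RNAPII peaks. The RNAPII peak met by an H3K4me3-free H3K27Ac peak can itself meet H3K4me3.

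Most RNAPII peaks stood alone. A run was defined as 2 or more peaks of a list with gaps of at most 10 kb, and runs held 18 of 332 OPC peaks (5.42%, 3.24 to 8.43) and 100 of 1425 iOL peaks (7.02%, 5.75 to 8.47). A longer list gives more neighbours by number alone, and the median gap to the nearest RNAPII peak was about 1844640 bp in OPC and 241565 bp in iOL. OPC had 9 runs, each of 2 peaks. iOL had 39 runs of 2, 3 of 3 and 1 of 13. The order of the stages was the opposite with gaps of up to 5 kb (4.22% in OPC, 3.79% in iOL) and with the iOL list cut to its 332 widest peaks (5.42% and 3.61%). In OPC 7 of 9 runs held no H3K4me3 and 5 held unmarked peaks only, so 12 of 57 unmarked peaks (21.1%, 11.4 to 33.9) but 3 of 235 with H3K4me3 (1.28%, 0.264 to 3.69) were in runs. In iOL 21 of 43 runs had H3K4me3 at every peak, 13 paired H3K4me3 with H3K4me3-free peaks, and 9 had none, 5 of them unmarked throughout. Unmarked iOL peaks were in runs in 24 of 151 cases (15.9%, 10.5 to 22.7), and those with H3K4me3 in 57 of 1044 (5.46%, 4.16 to 7.02). With H3K27Ac only it was 19 of 230 (8.26%, 5.05 to 12.6). Of the 24 unmarked peaks, however, 13 belonged to the single run of 13, so 1 place supplied most of them. The interval counts these 13 as independent peaks. Without that run the unmarked share would be lower and nearer to the shares of the other classes, but its value was not computed. By fate, 14 of 216 kept (6.48%, 3.59 to 10.6) and 4 of 116 lost OPC peaks (3.45%, 0.947 to 8.59), and 20 of 214 kept (9.35%, 5.80 to 14.1) and 80 of 1211 gained iOL peaks (6.61%, 5.27 to 8.15) were in runs.

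The run of 13 was in iOL at chr8:20739119-20796621, over 57503 bp. Its peaks were 407 to 1738 bp wide, 11562 bp in sum, with gaps of 8 to 9323 bp. All 13 were gained and unmarked in iOL, in OPC and in mOL, none met H3K9me3 of iOL and 1 met Olig2. H3K4me3 stood on both sides, 16628 bp before the first peak and 27100 bp after the last. At the far side an RNAPII peak with H3K4me3 was kept from OPC (chr8:20823297-20825066 in OPC). Inside the run OPC had 1 unmarked RNAPII peak, chr8:20742107-20743073, counted as lost because it lay 398 bp from the nearest iOL peak. For this stretch, too, unique mapping of the reads was not tested. Without this run the share of iOL peaks in runs was 6.16% (4.96 to 7.54), and the unmarked share of gained peaks was 9.27% (7.68 to 11.1) in place of 10.2%.

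**Figure D5:**
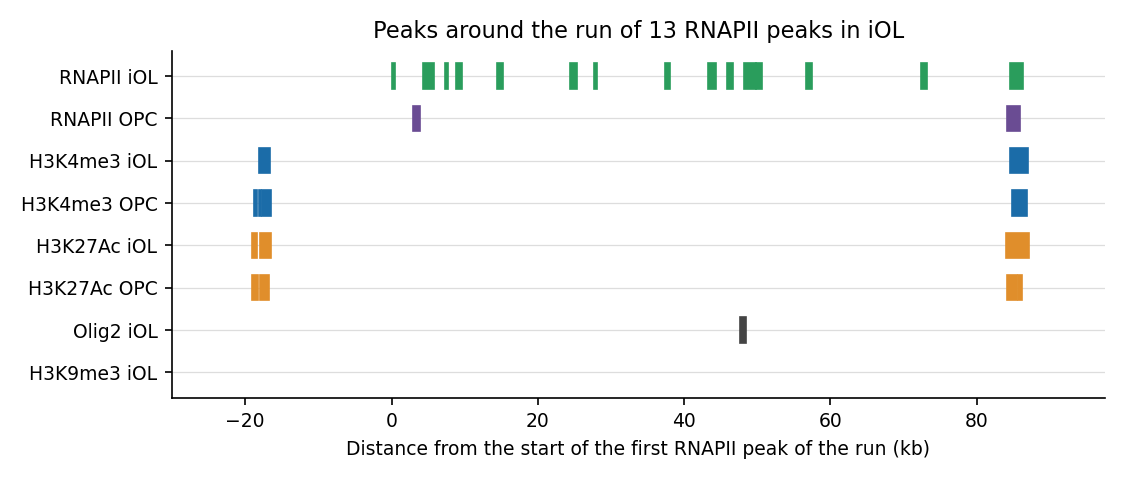
Peaks of each list around the run of 13 iOL RNAPII peaks, as distance in kb from the start of the first peak; boxes are peaks to scale. The 13 peaks fill the stretch from 0 to 57.5 kb, where neither H3K4me3 nor H3K27Ac was called, and promoter marks stand to the left and right of it.

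A few other places held several RNAPII peaks at both stages. With gaps of up to 50 kb, a distance chosen after the data had been seen, OPC had 3 stretches of 3 or more peaks and iOL had 26. All peaks of the 3 OPC stretches were kept. The first, chr10:75752312-75773333, had 2 unmarked peaks and 1 with H3K27Ac only, and in iOL the stretch held 5 peaks over chr10:75732821-75773605, none with H3K4me3. The second, chr10:90658365-90693215, had 3 peaks without H3K4me3 in OPC and 4 in iOL, 2 of those with H3K4me3. The third, chr9:71389586-71412144, lay within an iOL stretch of 6 peaks over chr9:71372722-71473115, which holds the peak of 3680 bp named above. Of the 26 iOL stretches, that at chr7:137727231-137771642 had 5 peaks, 2 of them kept, with H3K4me3 at 2 and H3K27Ac only at 3.

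Lost peaks were seldom near misses. Of 116 lost OPC peaks 4 (3.45%, 0.947 to 8.59) were within 1 kb of an iOL RNAPII peak and 12 (10.3%, 5.46 to 17.4) within 10 kb, with a median distance of 218838 bp. Of 1211 gained peaks 6 were within 1 kb and 26 within 10 kb of an OPC RNAPII peak. The widest lost peak with H3K4me3, chr14:57326468-57328364 (1897 bp), bridged 3 H3K4me3 peaks in OPC. It kept H3K4me3 in iOL and mOL, and the nearest iOL RNAPII peak was 6234488 bp away. The widest gained peak, chr1:15440558-15443642 (3085 bp), met H3K4me3 at all 3 stages. In iOL it met an H3K4me3 peak of 2666 bp, H3K27Ac of 4618 bp and Olig2. The gained peak chr10:89520241-89523111 (2871 bp) met iOL H3K27Ac of 10834 bp.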

How the data were processed

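Per the submitters' processing notes, MACS 1.4.0 and rat build rn4 were used; the aligner, the threshold, any control library and filters are not named there. The authors' deposited files hold other values than read counts: 3 columns with chromosome, start and end of each peak, without score or header. Read depth is therefore unknown, and a deeper library gives a longer list. Samples were assigned from their titles, with 1 library per target and stage. Starts were written 1-based. Overlap meant at least 1 bp; distances run between edges; the widest H3K4me3 peak met was taken. Shares carry exact Clopper-Pearson and medians exact binomial 95% intervals, which hold for independent peaks and take in no other error. A limit for 0 uses 3 counts. Regions named were the 5 widest of each group, the runs with most peaks and the 5 widest H3K4me3 peaks with RNAPII, of which the text gives a selection; joined peaks, pairs with equal borders and the 50 kb stretches were chosen after their values were seen. The members and lists were chosen with earlier results of these data known. Genes and sequences are not named, since the annotation tables at hand (GRCr8) are of another build. Overlap, distance and run calculations were tested on simulated lists and against bedtools 2.31.1. Python 3.11.15, numpy 2.4.6, pandas 2.3.3, scipy 1.17.1 and matplotlib 3.10.9 were used. Alternatives changed the overlap rule, unplaced sequence, merging, peak width, list length, stage of the marks and run gap; leaving out the longest iOL run was added after seeing the data.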

Additional observations from a re-analysis of the deposited data

How the results depend on the processing

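Of 64 values of the main shares under other settings, 40 stayed inside the 95% interval of the reported value and 24 fell outside it, and the cause was not tested. Of 105 values of the other shares and medians, 83 stayed inside and 22 fell outside. Among these 105 are the shares of H3K4me3-free peaks within 10 kb of H3K4me3 under other overlap rules. Their direction of change was largely set by the rule, so they do not test stability. Leaving out unplaced sequence and merging peaks could not move a value, since the RNAPII lists hold no unplaced and no overlapping peaks. Each of these settings supplied 24 of the values that stayed inside, which therefore say nothing about stability. Taking the wider 50% of each RNAPII list, the middle 200 bp of each RNAPII peak, or the 332 widest iOL peaks gave a kept share of OPC peaks of 37.3%, 42.2% and 20.8%, and a gained share of iOL peaks of 91.6%, 90.2% and 80.1%. The H3K4me3 share of kept OPC peaks was 65.9% with an overlap of 50% of the shorter peak, and 67.7%, 67.1% and 63.8% under the same 3 settings. That of lost OPC peaks was 72.6% with the 332 widest iOL peaks. An overlap of 50% of the shorter peak gave 72.1% for kept and 64.0% for gained iOL peaks, the middle 200 bp gave 72.1% and 65.1%, and counting peaks within 1000 bp as overlapping gave 76.9% for gained peaks. With marks of OPC, iOL and mOL counted together the shares were 85.2% (kept OPC), 86.9% (kept iOL) and 84.0% (gained). The share of iOL peaks in runs was 3.79% with gaps of up to 5 kb, 11.9% with 20 kb, 5.62% in the wider 50% and 3.61% with the 332 widest peaks, and that of OPC peaks was 4.22% with 5 kb and 8.73% with 20 kb. The H3K4me3 share was higher in kept than in gained iOL peaks under all 9 alternatives, and higher in kept than in lost OPC peaks under 7 of 9. The H3K4me3 peak met was wider at kept than at gained and at lost peaks under all 7 alternatives run for each. These counts of alternatives include unplaced sequence and merging, which could not change the order. In iOL they also include the cut of the H3K4me3 lists to equal length, which left the shorter iOL list as it was. Read depth is unknown and width stood in for peak strength, which the lists do not hold. No paired analysis was possible because each target and stage has 1 library and no test was made.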
